A study of Mus musculus with 21 samples.

Results

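Imprinted genes are expressed mainly or only from the chromosome copy inherited from 1 parent, under the control of DNA methylation laid down in the germ line. Their expression was followed in a parental mouse line and 5 lines that carry different forms of the transcription factor TWIST1. The genes were chosen by symbol from a fixed list of 49, all of which were listed among the 48321 symbols of the deposited count tables. Of the 49, 48 had at least 1 count in some sample and 43 passed the filter on low counts. Airn, Dio3, Kcnq1, Slc22a18, Slc22a3 and Kcnk9 did not pass, and Kcnk9 had no count in any sample.

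The samples were embryoid bodies, aggregates of differentiating embryonic stem cells, collected on day 3 from A2loxCre cells, labelled as C57BL/6. In that parental line a coding sequence can be placed behind a promoter that responds to doxycycline. There were 7 groups of 3 samples. The parental line received doxycycline and carried no TWIST1 construct. The line with an integrated Twist1 monomer was measured without doxycycline and, separately, after 16 h of doxycycline. Of the 4 other lines, all given doxycycline, 1 carried a Twist1 homodimer and the others Twist1 joined to the E-protein Tcf3, Tcf4 or Tcf12. Every construct was present in 1 line only, so the construct and other properties of the line cannot be told apart, except in the monomer line, where samples with and without doxycycline share the line. The labels do not say that the 3 samples of a group were separate cultures, so p-values measure the spread between these samples, which may be technical. Counts are per gene and cannot show which parental copy was transcribed. In these bulk samples, fewer expressing cells and less RNA per cell cannot be told apart.

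Imprinted genes sit in clusters in which a control region, methylated on 1 parental copy, sets the expression of several neighbours. Many act on growth: Igf2, Mest, Peg3 and Plagl1 are paternally expressed, while H19, Grb10, Cdkn1c and Meg3 are maternally expressed in most embryonic tissues. In cultured embryonic stem cells this control is known to drift between lines and with passage, and the Dlk1-Dio3 cluster is known for such drift. ZFP57, a zinc finger protein, binds the hexamer TGCCGC when it is methylated and helps to keep methylation at imprinting control regions.

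H19, which had the widest range over the lines, is the host of a microRNA with 2 mature arms. They are printed to show what this transcript can give rise to, with the seed (bases 2 to 8) in capitals, from RefSeq on GRCm38.p6.

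mmu-miR-675-5p (chr7:142577112-142577133, minus strand): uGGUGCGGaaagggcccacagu
mmu-miR-675-3p (chr7:142577078-142577099, minus strand): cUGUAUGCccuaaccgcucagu

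The seeds of these arms differ. Neither microRNA itself was measured, since the libraries were made from mRNA.

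RefSeq promoter windows (250 bases before to 50 after a start site, GRCm38.p6) were found for 38 of the 49 genes, as 56 windows. Entries for Nap1l4, Kcnk9, H19, Sgce, Trappc9, Rtl1, Cdkn1c, Peg13, Kcnq1, Peg10 and Impact were not matched. As examples, windows are shown of 4 genes whose levels differed between lines and that hold the ZFP57 hexamer, in capitals as TGCCGC or, on the other strand, GCGGCA. Calcr, Grb10, Snrpn and Igf2, also called among the lines, have windows with the hexamer that are not printed.

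Meg3 (chr12:109540746-109541045, plus strand): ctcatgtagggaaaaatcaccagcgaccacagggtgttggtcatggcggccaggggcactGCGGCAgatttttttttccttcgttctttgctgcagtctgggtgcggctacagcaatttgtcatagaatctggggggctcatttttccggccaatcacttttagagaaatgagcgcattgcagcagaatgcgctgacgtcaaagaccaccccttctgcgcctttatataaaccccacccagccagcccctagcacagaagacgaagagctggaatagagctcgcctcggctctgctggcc
Nnat (chr2:157559828-157560127, plus strand): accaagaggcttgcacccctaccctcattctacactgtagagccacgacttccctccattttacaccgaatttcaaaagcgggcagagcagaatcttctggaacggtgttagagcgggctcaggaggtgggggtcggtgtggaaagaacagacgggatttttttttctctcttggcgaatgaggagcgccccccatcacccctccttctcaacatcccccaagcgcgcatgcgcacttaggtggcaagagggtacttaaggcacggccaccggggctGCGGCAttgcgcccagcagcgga
Mest (chr6:30737800-30738099, plus strand): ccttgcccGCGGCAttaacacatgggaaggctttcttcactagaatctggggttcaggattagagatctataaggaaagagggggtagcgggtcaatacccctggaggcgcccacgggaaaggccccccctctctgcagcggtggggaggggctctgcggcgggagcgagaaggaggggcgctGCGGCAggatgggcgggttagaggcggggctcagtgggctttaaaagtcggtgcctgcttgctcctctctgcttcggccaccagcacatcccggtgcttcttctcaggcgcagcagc
Plagl1 (chr10:13090582-13090881, plus strand): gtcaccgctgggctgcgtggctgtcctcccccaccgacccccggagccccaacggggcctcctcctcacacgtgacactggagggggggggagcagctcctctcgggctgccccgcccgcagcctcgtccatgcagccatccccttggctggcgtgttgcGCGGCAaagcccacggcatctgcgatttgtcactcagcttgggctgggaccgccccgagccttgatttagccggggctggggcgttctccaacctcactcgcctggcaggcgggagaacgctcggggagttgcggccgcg

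The Mest window held 2 copies of the hexamer and the other printed windows 1 each. On either strand, TGCCGC was found in 13 of 56 windows of imprinted genes (23.2%) and in 11.6% of all 32851 windows. The general E-box CANNTG, the motif class bound by TWIST1 and the E-proteins, was found in 66.1% of the windows of imprinted genes and in 72.3% of all windows. The TWIST1 forms of the E-box that were searched, CATCTG and CATATG, both also matches to CANNTG, were in 12.5% and 1.79% of the windows of imprinted genes and in 17.2% and 3.91% of all windows. The median number of CpG dinucleotides was 13.5 per window for the imprinted genes and 7 for all windows. These matches describe the letters of the windows and do not show binding or methylation.

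Total counts per sample ranged from 6648842 to 15999693. Levels are counts per 1000000, scaled by library size and TMM factors (CPM), and 3 counts correspond to 0.188 to 0.451 CPM. Differences are log2 fold changes with standard errors from a fit by edgeR's quasi-likelihood test over all 21 samples, and a gene is called at a Benjamini-Hochberg adjusted p under 0.05. Twist1 was at 8.11 ± 0.789 CPM in the parental and 5.07 ± 0.633 CPM in the uninduced monomer samples (SD, n = 3). It reached 613 ± 31.6 CPM after induction of the monomer and 39.4 to 182 CPM in the means of the other lines. Tcf4 rose with the TCF4 dimer. Tcf3 was not called in the samples labelled TCF3 dimer (154 ± 4.53 against 167 ± 5.92 CPM in the parental line), nor Tcf12 in those labelled TCF12 dimer (93.1 ± 34.8 against 66.1 ± 3.03 CPM). For Tcf12 the call was narrowly missed (log2 fold change 0.50 ± 0.19, adjusted p 0.0548). The samples labelled TCF12 dimer held 53.2, 108 and 118 CPM of it, from lowest to highest, and the parental samples 62.9 to 68.9 CPM. Tcf12 was called higher in the samples labelled TCF3 dimer (104 ± 14.7 CPM, log2 fold change 0.66 ± 0.19, adjusted p 0.0119). These 2 groups are therefore named by their labels. Sample 1 labelled TCF12 dimer stood apart: its deviations followed transcript length (Spearman's rho -0.575 over 13909 genes, while the 18 samples outside that group lay between -0.26 and 0.281). Samples 2 and 3 of that group had values of opposite sign, 0.498 and 0.540, so this measure alone does not single out sample 1. Without sample 1 the estimated biological coefficient of variation fell from 0.120 to 0.0539 and more genes were called. Results are therefore also given from a 20-sample fit without that sample. Pluripotency markers (summed means of 1231 to 2115 CPM) and mesoderm markers (39.9 to 190.3 CPM) were both present in every group. The mesoderm sum was highest in the parental line, where trophoblast markers were also highest (139.7 CPM against 20.3 to 32.4 CPM, with Tpbpa at 0 in every group). Eomes is in both of these marker lists, so their sums are not independent. The summed primitive endoderm markers were 911 CPM in parental samples, 2969 and 2878 CPM in the uninduced and induced monomer samples, 2123 CPM in the samples labelled TCF3 dimer and 631 to 675 CPM in the other groups.

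Among the 6 doxycycline-treated lines, 24 of the 43 tested genes were called, where 47.3% of all 14311 tested genes were. The highest and lowest line means differed by at least 2-fold for 17 of the 43 (39.5%), against 15.8% of all tested genes. The median range over line means was 0.84 on the log2 scale for the imprinted genes and 0.52 for all tested genes. In the 20-sample fit the calls among lines were 34 of 45 tested imprinted genes, where 69.7% of all tested genes were called. Of the paternally expressed genes, 12 of 20 tested were called among the lines, and of the maternally expressed genes 11 of 19. Over the 15 pairs of lines the calls added up to 174 of 645 gene-by-pair tests, where 19% of such tests over all genes were called, and to 266 in the 20-sample fit. The fewest calls, 3, were between the groups with the TCF4 and (by label) the TCF12 dimer, where 3.24% of all genes were called, and the most, 19, between the samples labelled TCF3 dimer and the parental line. Peg13 passed the filter only through the samples labelled TCF3 dimer. It is counted in the 24, the 17, the 34 and the 19, and as 5 of the 174 pair calls. Dio3, counted in the 34, passed the filter of the 20-sample fit only through homodimer samples.

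**Figure D1:**
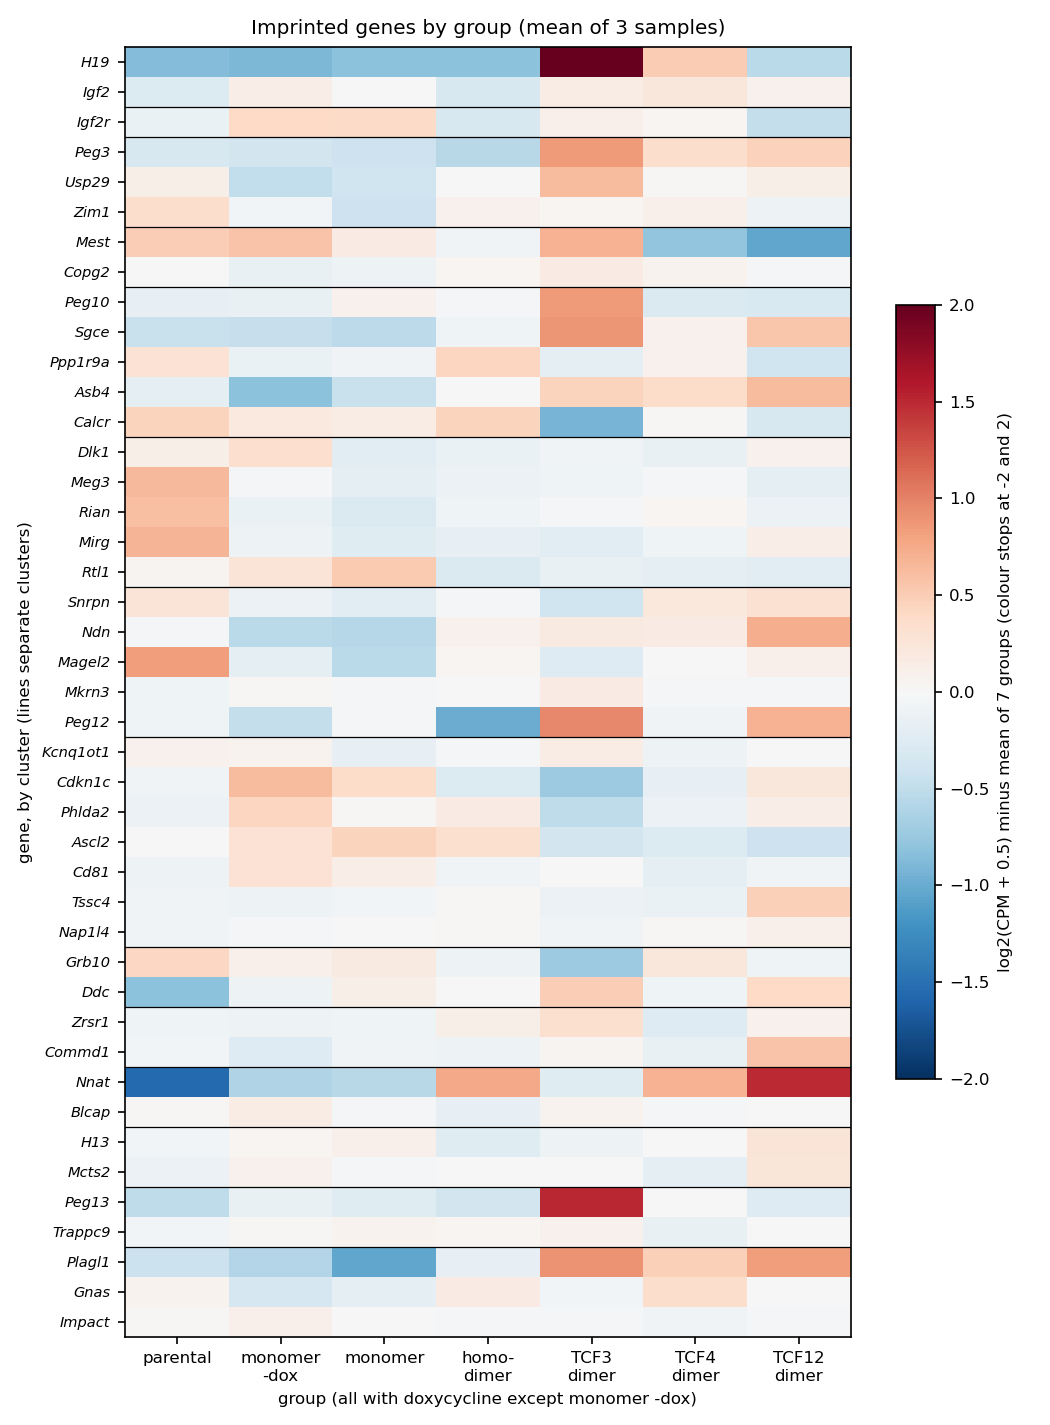
Mean level of the 43 tested imprinted genes in each group (rows, by cluster; columns, groups of 3 samples), as log2(CPM + 0.5) minus the mean of the 7 groups, with colours limited to -2 and 2. H19 and Peg13 stand out in the TCF3 dimer column, Nnat is lowest in the parental column, and Meg3, Rian, Mirg and Magel2 are highest there.

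Each line was then set against the parental line. These comparisons share the parental samples, so a gene that was unusual in those samples appears in all of them. In the samples labelled TCF3 dimer, 11 imprinted genes were higher and 8 lower, where 28.3% of all tested genes were called (16.3% higher and 12% lower). The 11 include Peg13, which passed the filter only through these samples. In those labelled TCF12 dimer 9 were higher and 8 lower, where 27% of all genes were called (15.5% and 11.5%). The TCF4 dimer line had 4 higher and 5 lower, beside 12.9% of all genes (7.18% and 5.67%), and the homodimer line 1 higher and 5 lower, beside 8.84% (4.81% and 4.02%). The induced monomer line had 3 higher and 6 lower, beside 20% (10.8% and 9.22%). The median absolute log2 fold change of the 43 genes was 0.43 in the samples labelled TCF3 dimer and 0.48 in those labelled TCF12 dimer, against 0.24 and 0.28 over all tested genes. It was 0.29 in the induced monomer line, 0.21 with the TCF4 dimer and 0.20 in the homodimer line, against 0.20, 0.16 and 0.15 over all tested genes. In the 20-sample fit the calls were 25 of 45 (TCF3 dimer, 46.5% of all genes called), 18 (TCF12 dimer, 30.3%), 15 (TCF4 dimer, 28.1%), 12 (homodimer, 20.4%) and 17 (induced monomer, 35.2%). The 25 include Peg13 and the 12 include Dio3, each of them tested only through the group in question. Of the 18 with TCF12 dimer, 16 were also called with all 21 samples. When the parental samples and those labelled TCF12 dimer were fitted alone, 5 imprinted genes were called in place of 17; the calls lost included Asb4, Calcr, Ddc, Grb10, Magel2, Ndn, Peg3, Meg3, Rian and Mirg.

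The monomer line allowed a difference of the line to be set beside induction. Without doxycycline it already differed from the parental line in 10 of the 43 genes, where 19.9% of all tested genes were called. Igf2, Cdkn1c, Cd81 and Nnat were higher, and Meg3, Rian, Mirg, Snrpn, Ndn and Magel2 were lower, beside 10.5% of all tested genes higher and 9.43% lower. With doxycycline 8 of these 10 were called against the parental line in the same direction, all but Igf2 and Cd81. Both comparisons use the same parental samples, so repeated calls are likely for any gene, and the first also differs in doxycycline. The share of all tested genes called in both is not given here, so the 8 of 10 is not read as particular to imprinted genes. Between induced and uninduced samples of the monomer line, 0 of the 43 genes were called by edgeR, where 2% of all tested genes (286) were, 1.52% higher and 0.475% lower. Unadjusted p-values under 0.05 were found for 3 genes, Dlk1, Magel2 and Mest, and DESeq2 gave the same count, with 0 adjusted calls. Among the 10 genes, the largest absolute log2 fold change with induction was 0.36, for Magel2. The median absolute log2 fold change with induction over the 43 genes was 0.14, against 0.11 over all tested genes, and that of the uninduced line against the parental line was 0.32, against 0.21.

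**Figure D2:**
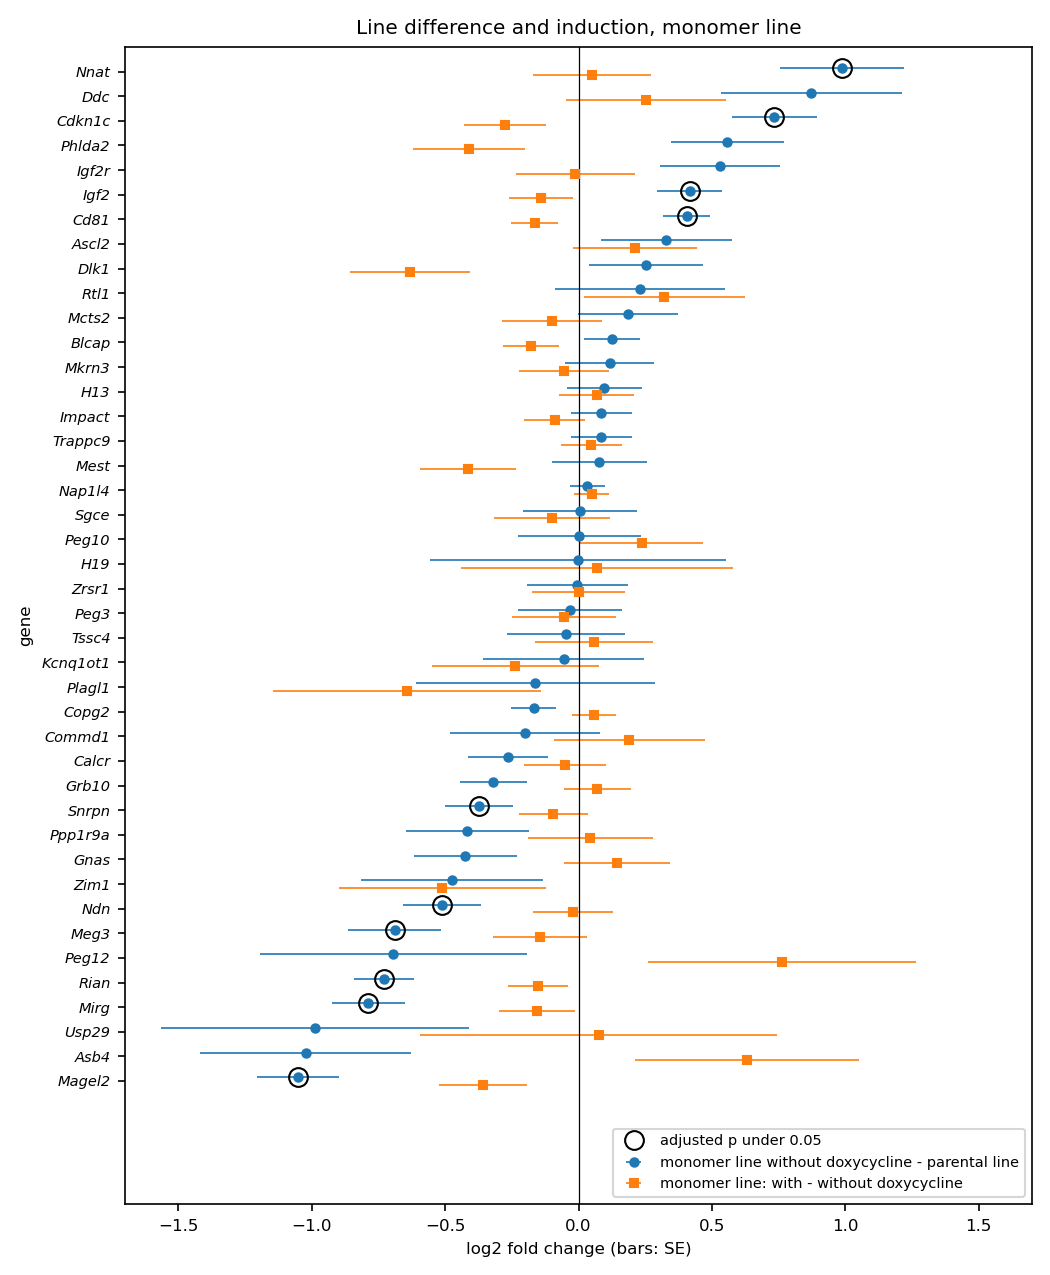
Log2 fold change of 42 tested imprinted genes (rows, without Peg13, which had 2 counts in the parental samples) for the uninduced monomer line against the parental line (circles) and for the monomer line with against without doxycycline (squares), with standard errors as bars. Rings mark adjusted p under 0.05: 10 circles and no square carry one.

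The 20-sample fit called 2 genes with induction, both lower with doxycycline, where 6.17% of all genes were called. Mest, a hydrolase-family protein of mesoderm, was at 75.3, 75.9 and 64.3 CPM without and 53.7, 57.1 and 50.7 CPM with doxycycline, so the groups did not overlap (log2 fold change -0.41 ± 0.07, adjusted p 0.00026). Phlda2, a growth-restraining gene of the placenta, was at 37.6, 38.6 and 32.2 CPM without and 27.8, 28.02 and 25.7 CPM with doxycycline, again without overlap (-0.41 ± 0.09, adjusted p 0.00248). With all 21 samples their adjusted p-values were 0.43 and 0.59. That fit also called 19 imprinted genes for the uninduced monomer line against the parental line, where 36.8% of all genes were called.

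H19, a maternally expressed non-coding RNA (chr7:142575529-142578143, minus strand, GRCm38), showed the widest range of all 49 genes. H19 stood at 32.4, 19.4 and 27.2 CPM in the samples labelled TCF3 dimer. In the TCF4 dimer samples H19 was at 2.91, 2.31 and 4.01 CPM. The remaining samples held 0.436, 1.08 and 1.11 CPM (parental), 0.651, 0.523 and 1.37 CPM (uninduced monomer), 0.569, 0.788 and 1.40 CPM (induced monomer), 0.648, 1.08 and 1.03 CPM (homodimer) and 1.26, 0.985 and 1.45 CPM (labelled TCF12 dimer). All samples labelled TCF3 dimer lay above every other sample, and all TCF4 dimer samples lay above every sample of the other 5 groups. Against the parental line the log2 fold change was 4.88 ± 0.31 in the samples labelled TCF3 dimer (adjusted p 9e-10) and 1.82 ± 0.38 with the TCF4 dimer (adjusted p 0.00242). These groups also differed from each other (-3.07, TCF4 against TCF3 dimer, adjusted p 3.7e-08), a pair in which 19.7% of all genes were called. With induction of the monomer the change was 0.07 ± 0.51, with single samples near the level of 3 counts.

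Markers of fibroblasts and feeder cells, which express H19, summed to 105 CPM in the samples labelled TCF3 dimer and 82.2 CPM in those labelled TCF12 dimer. The sums were 62.7 CPM with the TCF4 dimer and 47.1 to 49.5 CPM in the other groups. Single markers did not all follow. Of 7 tested, 5 were called higher and 1 lower than in the parental line in the samples labelled TCF3 dimer. These numbers were 4 and 2 labelled TCF12 dimer, 3 and 1 with the TCF4 dimer and 0 and 0 with the homodimer. They were 1 and 1 in the uninduced and 3 and 1 in the induced monomer samples. The part of these markers in the H19 result was not tested. By Pearson correlation of log2(CPM + 0.5) over the 7 group means, the 5 tested genes most like H19 were Snx13 (r = 0.975), Flii (0.969), Samd11 (0.969), Tecpr1 (0.968) and Lrrc48 (0.963). All 5 were highest in the samples labelled TCF3 dimer, as this measure over 7 points largely requires.

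Igf2, the growth factor next to H19 that competes with it for shared enhancers, ranged only from 18.2 to 26.95 CPM in group means. It was called higher than in the parental line in the uninduced monomer samples (0.42 ± 0.12) and in those labelled TCF3 dimer (0.43 ± 0.12), TCF4 dimer (0.52 ± 0.12) and TCF12 dimer (0.38 ± 0.12). H19 and Igf2 were thus both higher in the samples labelled TCF3 dimer and with the TCF4 dimer. Of the exonic bases of Igf2, 62.8% are shared on the same strand with the annotated gene Gm49394, so reads of the 2 could not be separated.

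Peg13, a paternally expressed non-coding RNA within Trappc9 (chr15:72805600-72810324, minus strand), passed the filter only through the samples labelled TCF3 dimer, so a difference there was required for it to be tested. Those libraries held 2.56, 1.32 and 1.55 CPM, 65 counts in all. The parental samples held 0.00, 0.217 and 0.00 CPM, or 2 counts. Every other sample was at or under 0.472 CPM, so the samples labelled TCF3 dimer did not overlap with the rest. The ratio of scaled counts to the parental line was 25.8, with a 95% interval from 6.85 to 217 that covers counting error only. Trappc9, its host gene, was called in no comparison with the parental line and its group means lay between 18.1 and 21.4 CPM.

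The maternally expressed non-coding RNAs of the Dlk1-Dio3 cluster on chromosome 12 were lower in every engineered line than in the parental line. Meg3, Rian and Mirg varied less than 2-fold between line means and are described because of their values. Rian, a host of small nucleolar RNAs (chr12:109603940-109661716, plus strand), was at 495, 530.4 and 501 CPM in the parental samples. Its other samples held 294, 312 and 315 CPM (uninduced monomer), 285, 274 and 270.4 CPM (induced monomer), 316, 299 and 334 CPM (homodimer), 360.4, 323 and 312 CPM (labelled TCF3 dimer), 349.8, 336 and 349 CPM (TCF4 dimer) and 228, 345 and 352 CPM (labelled TCF12 dimer). No sample of any engineered line reached the lowest parental value. Meg3 (chr12:109541001-109571726, plus strand) was at 148, 187 and 162 CPM in the parental samples and at 57.9 to 125 CPM in the other 18. Mirg, a microRNA host (chr12:109729764-109749460, plus strand), was at 29.98, 33.7 and 30.7 CPM against 15.5 to 28.02 CPM. For both, the parental samples again lay above all others.

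Their log2 fold changes were close to each other within a line. Without doxycycline the monomer line stood at -0.73 ± 0.11 for Rian, -0.69 ± 0.18 for Meg3 and -0.79 ± 0.14 for Mirg. After induction the values against the parental line were -0.88 ± 0.11, -0.83 ± 0.18 and -0.94 ± 0.14, and the changes with induction were -0.15 ± 0.11, -0.14 ± 0.18 and -0.16 ± 0.14, none of them called. In the samples labelled TCF3 dimer they were -0.62 ± 0.11, -0.73 ± 0.17 and -0.93 ± 0.13. The largest adjusted p over the 3 genes and the 6 groups was 0.0117. Meg3 was no longer called in the homodimer line without homodimer sample 2 (adjusted p 0.0505) or with the TCF4 dimer without parental sample 2 (0.0678). In the samples labelled TCF12 dimer, Meg3, Rian and Mirg were not called when only these and the parental samples were fitted. In the 20-sample fit their values there were -0.60 ± 0.10, -0.55 ± 0.06 and -0.80 ± 0.09, all called.

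Among the paternally expressed genes of the same cluster, Dlk1, a transmembrane ligand, lay between 3.12 and 4.81 CPM in group means and was called in 0 of the 15 line pairs (edgeR). Rtl1, which derives from a retrotransposon, was at 1.77 to 3.49 CPM in group means. It was not called against the parental line, and was called higher in the induced monomer line than in the homodimer line and the groups with the TCF4 and (by label) TCF12 dimer (adjusted p 0.0395, 0.0305 and 0.0314). Over the 6 lines together it was called in the 20-sample fit only (adjusted p 0.034). Dio3, a thyroid hormone deiodinase at the far end of the cluster, was under the filter with all samples, with 0.212 CPM in the parental mean and 0.863, 1.71 and 1.85 CPM in the homodimer samples. Of these 3 samples, 2 lay above every other sample of the series. In the 20-sample fit Dio3 passed the filter only through homodimer samples, so a high level there was required for it to be tested. It was called higher than in the parental line with the homodimer (2.75 ± 0.53, adjusted p 0.00023), a call that carries this limit. It was also called with the TCF4 dimer (1.58 ± 0.60, adjusted p 0.0484). The 10 nearest tested genes outside the cluster, 5 on each side, had median log2 fold changes between -0.03 and 0.13 in the 6 groups. Of these 10, Ppp2r5c was above 0 in all 6 groups (0.20 to 0.55) and was called higher in 4 of them, and with induction (0.34 ± 0.07, adjusted p 0.00796), and Wdr20 was called higher in the uninduced monomer samples (0.35 ± 0.11). The trophoblast and mesoderm sums, given above and both including Eomes, were highest in the parental samples as well. Of 5 tested trophoblast markers, 1 was called higher and 2 lower in the samples labelled TCF3 dimer. In those labelled TCF12 dimer 2 were higher and 3 lower. The other groups had 0 higher, with 3 lower for the TCF4 dimer, 1 for the homodimer and 2 for the monomer line, induced or not. Of 6 tested mesoderm markers, 3 were higher and 3 lower in each of the groups labelled TCF3 and TCF12 dimer. With the TCF4 dimer 2 were higher and 3 lower, and with the homodimer 0 and 4. The monomer line, induced or not, had 1 higher and 3 lower. Their part in this result was not tested.

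**Figure D3:**
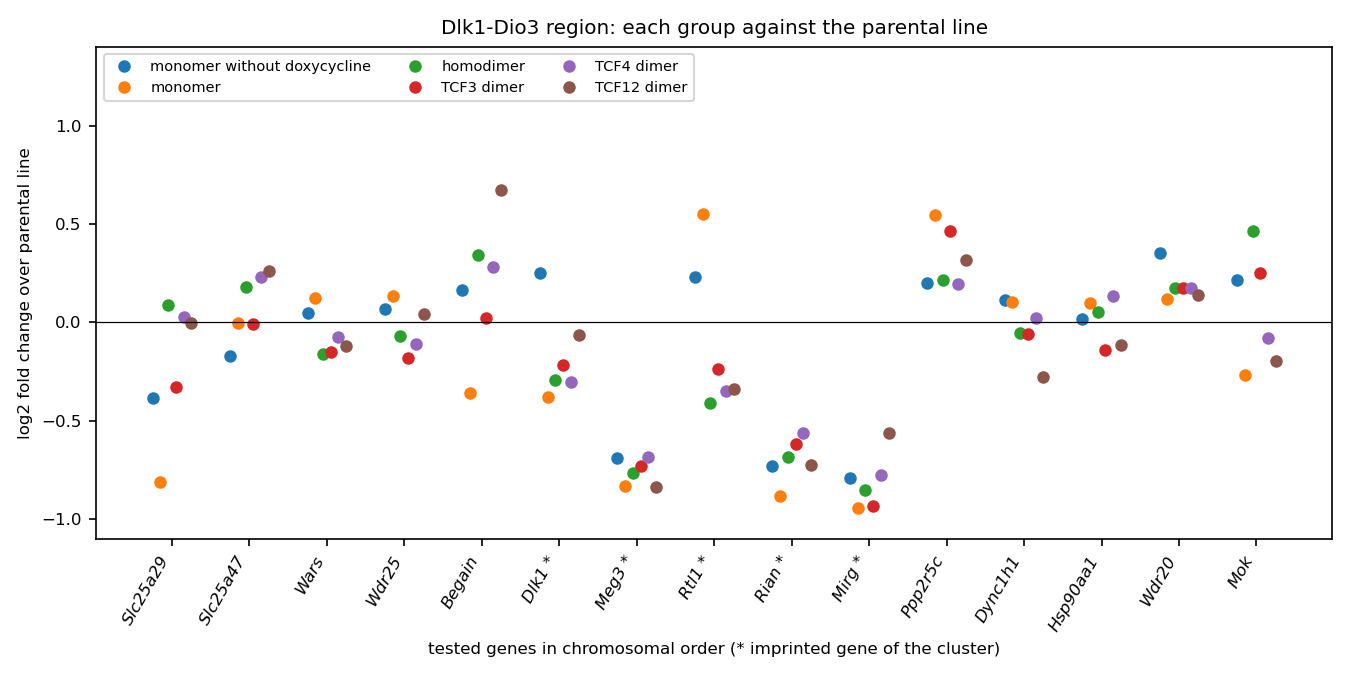
Log2 fold change over the parental line (vertical axis) of the tested genes in and around the Dlk1-Dio3 cluster in chromosomal order (horizontal axis, not to scale), with 1 point per group. Meg3, Rian and Mirg lie between -0.94 and -0.56 in all 6 groups, while the flanking genes lie on both sides of 0, with Ppp2r5c above 0 in all 6.

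The genes of the Snrpn cluster on chromosome 7, all paternally expressed, did not move together. Magel2, a ubiquitin ligase adaptor (chr7:62377010-62381640, plus strand), was highest in the parental line at 31.6, 35.9 and 31.99 CPM. It was at 14.8, 16.7 and 16.2 CPM in the uninduced and 13.7, 12.9 and 10.9 CPM in the induced monomer samples, 19.4, 17.95 and 19.03 CPM with the homodimer, 15.6, 17.04 and 13.3 CPM labelled TCF3 dimer, 18.6, 17.4 and 19.6 CPM with the TCF4 dimer and 13.9, 20.2 and 25.3 CPM labelled TCF12 dimer. The parental samples did not overlap with any other group, and the log2 fold changes ran from -1.41 ± 0.16 (induced monomer) to -0.74 ± 0.15 (labelled TCF12 dimer). It was called in all 5 lines and in the uninduced monomer samples (-1.05 ± 0.15, adjusted p 5.9e-05).

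Ndn, a growth suppressor of the same MAGE family (chr7:62346569-62350262, plus strand), was lowest in the monomer line, at 18.1, 16.9 and 17.7 CPM without and 18.7, 16.9 and 16.3 CPM with doxycycline. Parental samples held 25.6, 24.9 and 24.5 CPM, homodimer samples 27.5, 29.98 and 24.7 CPM, those labelled TCF3 dimer 32.7, 26.04 and 28.8 CPM, TCF4 dimer samples 31.1, 27.3 and 28.9 CPM and those labelled TCF12 dimer 55.7, 37.99 and 34.6 CPM. All 6 monomer samples lay below, and all samples labelled TCF12 dimer above, every other sample. Against the parental line the changes were -0.51 ± 0.15 (adjusted p 0.0167) and -0.53 ± 0.14 (adjusted p 0.0121) in the uninduced and induced monomer samples, and 0.77 ± 0.14 in the samples labelled TCF12 dimer (0.53 ± 0.09 in the 20-sample fit). The monomer calls were at the margin: the uninduced one was lost without uninduced sample 2 (adjusted p 0.064) or parental sample 1 (0.052), and the induced one without induced sample 3 (0.0511).

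Snrpn, a splicing protein with the highest level per kilobase of exon among the 49 genes (103 CPM per kb as the mean of 7 groups), was lower in the uninduced (-0.37 ± 0.13) and induced monomer samples (-0.47 ± 0.13) and in the samples labelled TCF3 dimer (-0.65 ± 0.13). In the samples labelled TCF12 dimer its value turned from 0.05 ± 0.13 with all samples to -0.22 ± 0.06 in the 20-sample fit (adjusted p 0.00545). Part of its exons (27.3%) is shared with Snurf and Gm38393 on the same strand. Mkrn3, a ring finger gene, was called in no comparison.

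Peg12, a gene of the same cluster with few counts (chr7:62461871-62464510, minus strand), was at 2.15, 2.91 and 2.03 CPM in the samples labelled TCF3 dimer and 2.10, 1.81 and 1.78 CPM in those labelled TCF12 dimer. Its other samples held 0.763, 0.976 and 0.908 CPM (parental), 0.651, 0.732 and 0.293 CPM (uninduced monomer), 0.455, 1.58 and 0.752 CPM (induced monomer), 0.432, 0.180 and 0.103 CPM (homodimer) and 0.865, 0.513 and 1.34 CPM (TCF4 dimer). Samples labelled TCF3 dimer lay above all those of the other groups but for 1 labelled TCF12 dimer. The change was 1.40 ± 0.36 in the samples labelled TCF3 dimer (adjusted p 0.00585). The call in those labelled TCF12 dimer (adjusted p 0.0392) was lost without that group's sample 1 or 2 or without any 1 parental sample (0.052 to 0.11).

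Nnat, a paternally expressed proteolipid of neural and endocrine cells (chr2:157560078-157562522, plus strand), was the gene that differed in the most pairs of lines, 13 of 15. It stood at 15.6, 12.1 and 11.5 CPM in the parental samples, 26.4, 27.5 and 23.9 CPM in the uninduced and 25.9, 28.6 and 26.01 CPM in the induced monomer samples. The homodimer samples held 70.8, 61.8 and 68.6 CPM and the TCF4 dimer samples 71.6, 60.8 and 59.8 CPM. Libraries labelled TCF3 dimer held 39.3, 29.7 and 30.9 CPM and those labelled TCF12 dimer 167, 97.97 and 72.6 CPM. All parental samples were below every other sample, and the monomer samples overlapped between the induced and uninduced groups. Relative to the parental samples the log2 fold changes were 1.04 ± 0.23 (induced monomer), 1.35 ± 0.23 (labelled TCF3 dimer), 2.29 ± 0.22 (TCF4 dimer), 2.36 ± 0.23 (homodimer) and 3.10 ± 0.23 (labelled TCF12 dimer, 2.70 ± 0.13 in the 20-sample fit), with a largest adjusted p of 0.00283. In that order, neighbours whose difference was not called were the induced monomer line and the samples labelled TCF3 dimer (adjusted p 0.342, 22.1% of all genes called in that pair), and the TCF4 dimer and homodimer lines (0.949, 5.83%). Induction of the monomer gave 0.05 ± 0.22. Blcap, the gene in whose intron Nnat lies, was called in 0 of the 15 pairs and had group means of 23.05 to 28.6 CPM. Neural markers, which include other genes of the cells known for Nnat, summed to 179 CPM in parental samples, 113 and 135 CPM in uninduced and induced monomer samples, 173 CPM in the homodimer line and 184 to 236 CPM in the others. Single markers did not follow the sum: of the 3 tested, 2 were called higher and 1 lower both in the homodimer line (median log2 fold change 1.17) and in the samples labelled TCF12 dimer (1.22). Their part in the Nnat result was not tested.

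Peg3, a large zinc finger protein that restrains its own network of growth genes (chr7:6703892-6730431, minus strand), was higher in the 3 heterodimer groups. It was at 377, 305 and 342 CPM in the samples labelled TCF3 dimer, 239, 249.9 and 237 CPM in the TCF4 dimer samples and 152, 304 and 322 CPM in those labelled TCF12 dimer. Parental samples held 146, 157 and 148 CPM, uninduced monomer samples 113, 150.1 and 177 CPM, induced ones 145, 126 and 153 CPM and homodimer samples 123, 135 and 125 CPM. Sample 1 labelled TCF12 dimer was the only heterodimer sample within the range of these. The changes were 1.18 ± 0.19 (adjusted p 0.00013), 0.68 ± 0.19 (0.0238) and 0.79 ± 0.19 (0.00577). The second was lost when any 1 TCF4 dimer or parental sample was left out (adjusted p 0.055 to 0.0792). In the 20-sample fit the values were 1.17 ± 0.09, 0.68 ± 0.09 and 1.06 ± 0.10, all called. Zim1 and Usp29, the other genes of its cluster, were at 2.50 CPM or less in every group mean and were not called among the lines with all samples (Usp29 was in the 20-sample fit, adjusted p 0.0327).

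Mest (chr6:30723547-30748465, plus strand) went the other way in 2 of these groups. Its samples held 29.7, 28.4 and 24.8 CPM with the TCF4 dimer, 12.5, 27.3 and 29.8 CPM labelled TCF12 dimer, and 75.6, 77.2 and 81.98 CPM labelled TCF3 dimer. Parental samples were at 72.3, 64.8 and 66.8 CPM and homodimer samples at 48.1, 43.99 and 45.1 CPM; the monomer values are given above. The TCF4 dimer samples and those labelled TCF12 dimer lay below all others, and the samples labelled TCF3 dimer lay above the parental samples. The changes against the parental line were -1.30 ± 0.18 (adjusted p 5.1e-05), -1.54 ± 0.19 (5.6e-06, and -1.25 ± 0.09 in the 20-sample fit) and 0.20 ± 0.18 (0.444). In the homodimer line the change was -0.57 ± 0.18 (adjusted p 0.0545, and 4.7e-07 in the 20-sample fit). Copg2, which overlaps Mest on the opposite strand, was not called among the lines with all samples but was in the 20-sample fit (adjusted p 0.0118). Reads of the shared bases, 23.1% of the exonic bases of Mest, may have come from either gene, since the strand setting of the counting is not given in the sources used here.

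In the Peg10 cluster on chromosome 6 all 5 genes were called among the lines, in different directions. Peg10, a retrotransposon-derived gene needed in placenta (chr6:4747306-4760517, plus strand), was at 467, 462 and 532 CPM in the samples labelled TCF3 dimer, above every other sample. It was at 207, 269 and 249.9 CPM in the parental, 224, 234 and 270.4 CPM in the uninduced monomer, 278, 267 and 313 CPM in the induced monomer, 259.6, 264 and 266 CPM in the homodimer, 205, 235 and 224 CPM in the TCF4 dimer samples and 102, 257 and 299 CPM in those labelled TCF12 dimer. With all samples, only the change in those labelled TCF3 dimer was called against the parental line (1.01 ± 0.23, adjusted p 0.00257). The 20-sample fit also called Peg10 higher in the induced monomer samples. In the samples labelled TCF12 dimer the value was -0.14 ± 0.23 with all samples and 0.20 ± 0.09 in the 20-sample fit, called in neither.

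Sgce, epsilon-sarcoglycan, starts beside Peg10 on the opposite strand (chr6:4674350-4747207, minus strand) and was highest in the same libraries, at 14.5, 10.9 and 13.4 CPM. It was at 12.9, 9.19 and 8.47 CPM labelled TCF12 dimer, 7.39, 7.01 and 7.30 CPM with the TCF4 dimer, 7.01, 6.46 and 5.56 CPM with the homodimer, 5.34, 4.23 and 4.94 CPM in the parental samples, and 4.23, 4.29 and 5.86 CPM and 4.21, 5.85 and 3.55 CPM in the uninduced and induced monomer samples. Its values labelled TCF3 and TCF12 dimer overlapped with each other and lay above those of every other group. The changes were 1.42 ± 0.19 (adjusted p 1.1e-05) and 1.06 ± 0.19 (0.00044, and 0.86 ± 0.18 in the 20-sample fit). That fit also called Sgce higher with the TCF4 dimer.

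Calcr, the calcitonin receptor (chr6:3685680-3764714, minus strand), was lowest where Peg10 and Sgce were highest, at 9.84, 12.4 and 10.98 CPM in the samples labelled TCF3 dimer. Parental samples held 28.3, 30.5 and 30.3 CPM, uninduced monomer samples 23.1, 28.4 and 22.5 CPM, induced ones 23.4, 24.1 and 24.1 CPM, homodimer samples 30.4, 29.3 and 29.3 CPM, TCF4 dimer samples 22.6, 23.1 and 19.8 CPM and those labelled TCF12 dimer 11.4, 19.4 and 20.99 CPM. Of the other 18 samples, only sample 1 labelled TCF12 dimer fell among those labelled TCF3 dimer. The changes against the parental line were -1.43 ± 0.16 (adjusted p 1.2e-06) and -0.77 ± 0.15 (0.00099, and -0.56 ± 0.10 in the 20-sample fit).

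Asb4, a substrate adaptor of a ubiquitin ligase (chr6:5383386-5433022, plus strand), was near the floor, at 0.872, 1.19 and 1.72 CPM in the parental, 0.813, 0.418 and 0.684 CPM in the uninduced and 1.02, 1.13 and 0.752 CPM in the induced monomer samples. It was at 1.73, 1.89 and 0.926 CPM with the homodimer, 2.81, 1.77 and 2.11 CPM labelled TCF3 dimer, 2.12, 2.14 and 2.01 CPM with the TCF4 dimer and 1.89, 2.79 and 3.15 CPM labelled TCF12 dimer. All heterodimer samples were above all parental samples. The change was 1.05 ± 0.29 in the samples labelled TCF12 dimer (adjusted p 0.0109, and 0.0603 without parental sample 1). The call in those labelled TCF3 dimer (0.81 ± 0.29, adjusted p 0.0437) was lost in DESeq2, with library size scaling, without the filter, and without TCF3 dimer sample 1 or 3 or parental sample 1 or 2. Ppp1r9a, a neural actin-binding protein, had group means of 18.1 to 32.5 CPM and with all samples was called against the parental line in those labelled TCF12 dimer alone (-0.68 ± 0.23, and -0.37 ± 0.12 in the 20-sample fit). The 20-sample fit also called it lower in the uninduced (-0.42 ± 0.11) and induced monomer samples (-0.39 ± 0.11) and in those labelled TCF3 dimer (-0.51 ± 0.11).

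Among the maternally expressed growth inhibitors, Grb10 and Cdkn1c were both lowest in the samples labelled TCF3 dimer. Grb10, an adaptor that dampens insulin and growth factor receptors (chr11:11930508-12038683, minus strand), was at 135, 135 and 136 CPM there. It was at 308, 293 and 304 CPM in the parental, 234, 239 and 251 CPM in the uninduced monomer, 266, 234 and 261 CPM in the induced monomer, 209, 204 and 217 CPM in the homodimer, 268, 271 and 252 CPM in the TCF4 dimer samples and 146, 237 and 249.8 CPM in those labelled TCF12 dimer. The samples labelled TCF3 dimer were below, and the parental samples above, all others. The change was -1.16 ± 0.13 in the samples labelled TCF3 dimer (adjusted p 1.3e-06), -0.52 ± 0.13 in the homodimer line (0.0108, and 0.0528 without homodimer sample 2) and -0.51 ± 0.13 in those labelled TCF12 dimer (0.00557, and -0.31 ± 0.05 in the 20-sample fit). While Grb10 fell, the 1117 tested genes of chromosome 11 had a median log2 fold change of 0.20 in the samples labelled TCF3 dimer, with 30.3% of them called higher. The 10 nearest tested genes around Grb10 and Ddc had a median of 0.17 there, with 2 called higher and 3 lower. In the samples labelled TCF12 dimer their median was -0.45, with 1 called higher and 5 lower. It was -0.38 with the TCF4 dimer (0 higher, 3 lower) and -0.15 with the homodimer (0 higher, 1 lower). Whether the fall of Grb10 was separate from these neighbours was not tested.

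Ddc, an enzyme of dopamine and serotonin synthesis beside Grb10 on chromosome 11 (chr11:11814101-11898144, minus strand), was lowest in the parental samples at 1.09, 1.52 and 2.32 CPM. It was at 2.77, 4.08 and 2.25 CPM in the uninduced and 2.96, 3.71 and 4.19 CPM in the induced monomer, 2.81, 4.22 and 2.78 CPM in the homodimer and 3.15, 3.42 and 2.68 CPM in the TCF4 dimer samples. Libraries labelled TCF3 dimer held 4.71, 5.56 and 4.23 CPM and those labelled TCF12 dimer 6.40, 3.94 and 3.15 CPM. Only 1 uninduced monomer sample overlapped with the parental range. The changes were 1.54 ± 0.31 (labelled TCF3 dimer, adjusted p 0.00077), 1.41 ± 0.31 (labelled TCF12 dimer, 0.00255, and 1.09 ± 0.29 in the 20-sample fit) and 1.13 ± 0.33 (induced monomer, 0.0187). The last call was lost without induced monomer sample 2 or 3 or parental sample 1 or 2 (adjusted p 0.0537 to 0.0972).

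Cdkn1c, an inhibitor of cyclin-dependent kinases (chr7:143458339-143461050, minus strand), was at 10.2, 10.2 and 11.3 CPM in the samples labelled TCF3 dimer, below every other sample. It was at 19.2, 15.7 and 15.8 CPM in the parental, 25.4, 31.6 and 27.2 CPM in the uninduced and 25.9, 22.1 and 21.7 CPM in the induced monomer samples. The homodimer samples held 14.5, 13.8 and 15.8 CPM, the TCF4 dimer samples 14.5, 18.6 and 14.7 CPM and those labelled TCF12 dimer 27.9, 17.2 and 18.2 CPM. The monomer samples, induced or not, lay above the parental ones. The changes were -0.68 ± 0.17 (labelled TCF3 dimer, adjusted p 0.0042) and 0.73 ± 0.16 (uninduced monomer, 0.00237). In the induced monomer line the change was 0.46 ± 0.16 with an adjusted p of 0.0498, which was lost in DESeq2 (0.0504), with RLE factors and without any 1 induced sample or parental sample 2 or 3 (0.0784 to 0.207). Of its exonic bases, 30.7% lie opposite Gm44732. In the rest of the Kcnq1ot1 cluster, with all samples, Cd81 was called in the uninduced monomer samples and in 1 of the 15 line pairs, Phlda2 in 2 line pairs, and Ascl2, a trophoblast factor, among the lines and in 5 line pairs. Kcnq1ot1, the non-coding RNA of that cluster, lay between 2.48 and 3.22 CPM in group means.

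Plagl1, a zinc finger factor that induces other imprinted genes (chr10:13060504-13131694, plus strand), was at 7.03, 3.97 and 6.51 CPM labelled TCF3 dimer, 3.67, 5.66 and 7.34 CPM labelled TCF12 dimer and 2.20, 4.96 and 5.41 CPM with the TCF4 dimer. It was at 2.62, 1.73 and 1.72 CPM in the parental, 1.46, 1.46 and 2.34 CPM in the uninduced monomer, 1.37, 0.563 and 1.50 CPM in the induced monomer and 2.37, 1.97 and 3.19 CPM in the homodimer samples. Except for TCF4 dimer sample 1, all heterodimer samples lay above these 12. The changes were 1.53 ± 0.36 (adjusted p 0.00312), 1.48 ± 0.36 (0.00562, and 1.68 ± 0.31 in the 20-sample fit) and 1.06 ± 0.37 (0.0667, not called, and 0.00836 in the 20-sample fit).

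**Figure D4:**
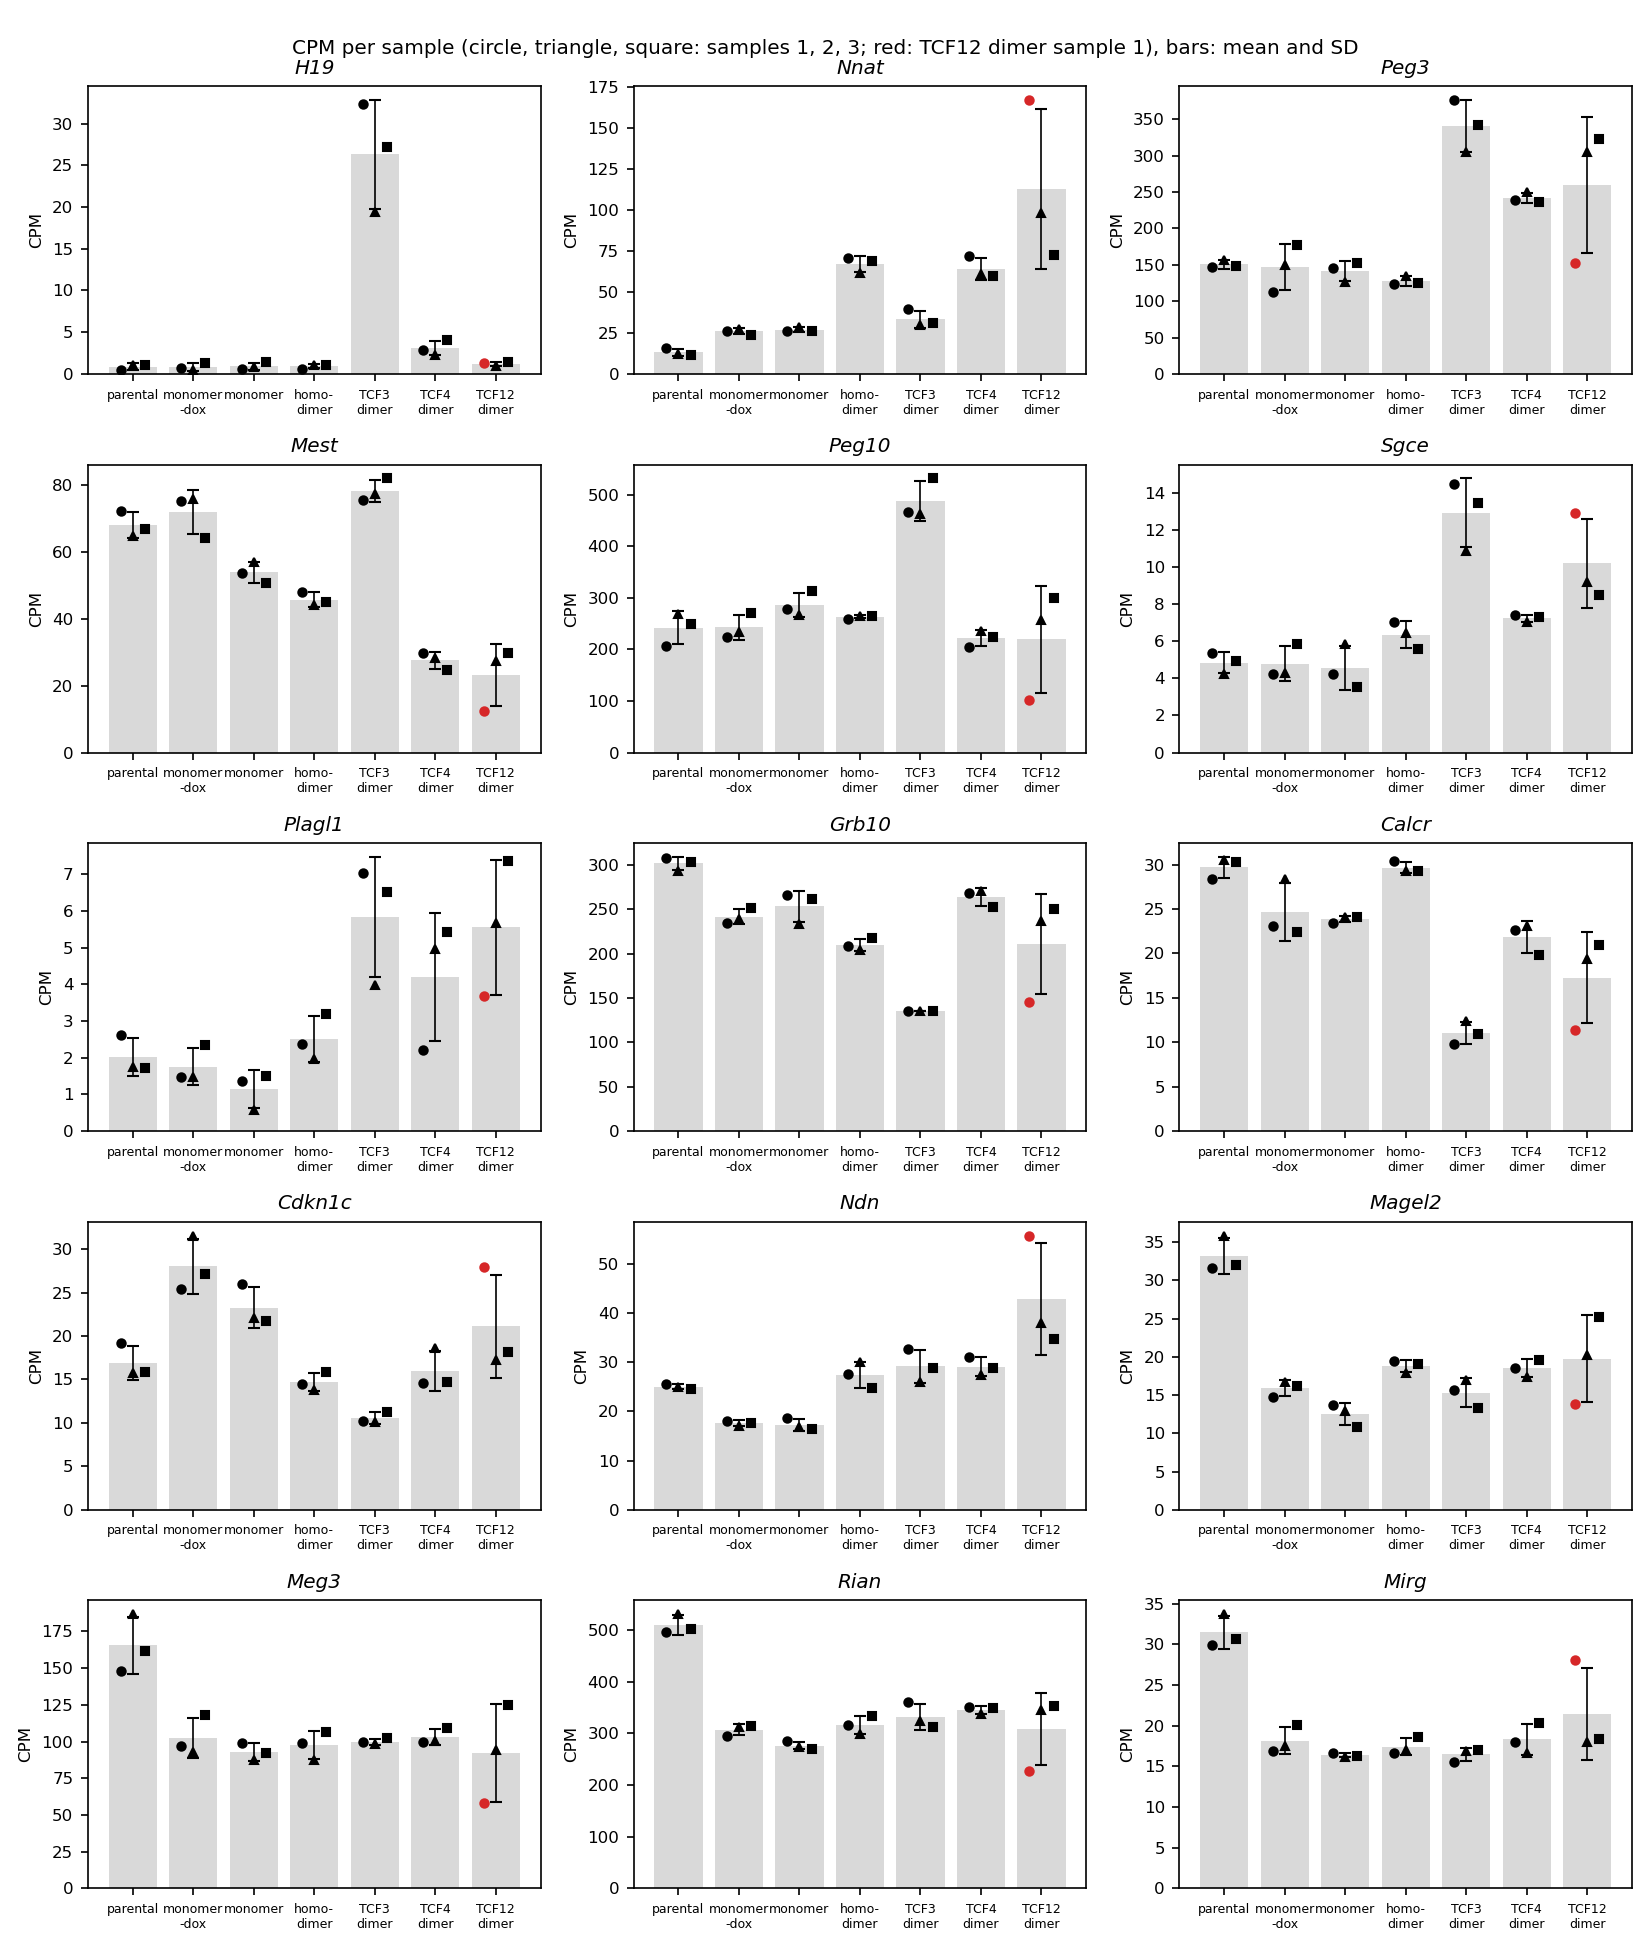
CPM of 15 imprinted genes in each of the 21 samples (points, with circle, triangle and square for samples 1, 2 and 3), with group means as grey bars from 0 and SD as error bars. The red point is sample 1 labelled TCF12 dimer, which lies far from the other 2 samples of its group for Nnat, Peg3, Mest, Peg10, Grb10 and Ndn.

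Of the 43 tested genes, 19 were not called among the 6 lines. Impact, a regulator of translation, had line means within 1.06-fold of each other and Nap1l4, a histone chaperone, within 1.13-fold. H13 and Mcts2, Zrsr1 and Commd1, and Gnas were also not called among the lines with all samples, though H13, Zrsr1 and Gnas each were in 1 of the 15 line pairs. The 20-sample fit called Impact, H13, Zrsr1 and Gnas among the lines (adjusted p 0.0109, 0.0122, 0.0216 and 0.0119). Zrsr1 and Commd1, and Gnas and Nespas, overlap on opposite strands, so their counts may be mixed. Igf2r, the receptor that clears IGF2, was called among the lines with group means of 127 to 233 CPM. It was not called in any line against the parental line; in the 20-sample fit it was higher in the uninduced (0.53 ± 0.07) and induced monomer samples (0.51 ± 0.07) and in those labelled TCF3 dimer (0.22 ± 0.07). Airn, the non-coding RNA that silences Igf2r on the paternal copy in many tissues, had 21 counts over all samples.

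With all 21 samples, Meg3, Rian, Mirg and Magel2 (lower) and Nnat (higher) were the imprinted genes called in all 5 doxycycline-treated engineered lines against the parental line. These genes were also all called in the uninduced monomer samples. In single lines 8.84% to 28.3% of all tested genes were called. The share called in all 5 lines is not given here for all tested genes, so no excess among the imprinted genes is read from this. The 20-sample fit called Grb10 (lower), Ddc (higher) and Mest in all 5 lines as well. Mest was higher than in the parental line in the samples labelled TCF3 dimer and lower in the other lines. Of these additional genes, Grb10 and Ddc were also called in the uninduced monomer samples in that fit. A shared difference of this kind is equally a property of the parental samples, which enter every comparison.

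Factors that maintain imprints were taken from a list of genes outside the 49. Of its 16 tested genes, 8 were called among the lines, near the 47.3% of all tested genes called there. In the uninduced monomer line 4 were higher than in the parental line, where 10.5% of all tested genes were, and none was called with induction (edgeR). Zfp57 had 35.5 ± 2.02 CPM in parental samples and, with and without induction of the monomer, 70.4 ± 4.03 and 77.8 ± 5.27 CPM (SD, n = 3). It was also higher in the samples labelled TCF3 dimer (58.9 ± 2.08 CPM, log2 fold change 0.73 ± 0.08) and lower with the TCF4 dimer (27.6 ± 0.546 CPM, -0.36 ± 0.08). Dnmt3b, a de novo DNA methyltransferase, was at 2666 ± 47.8 CPM in the parental samples and lower in all 5 doxycycline-treated engineered lines, from -0.55 ± 0.15 with the TCF4 dimer (1817 ± 69.1 CPM) to -1.34 ± 0.15 in the samples labelled TCF3 dimer (1054 ± 80.1 CPM). In the uninduced monomer samples it was at 2258 ± 77.1 CPM, not called. Dnmt3l, its cofactor in germ cells, was at 63.1 ± 0.981 CPM in parental samples. It was at 155 ± 8.31 and 176 ± 10.8 CPM in uninduced and induced monomer samples (log2 fold changes 1.30 ± 0.14 and 1.48 ± 0.14). The homodimer samples also had a higher mean than the parental ones, 124 ± 15.0 CPM, and the means of the remaining groups were 56.1 to 76.4 CPM. Tet2, an enzyme that oxidises methylcytosine, was higher in the monomer line without doxycycline (1.31 ± 0.29) and with it (1.06 ± 0.29), and in the samples labelled TCF3 dimer (1.41 ± 0.28). The groups with higher Zfp57 and Tet2 were those with the highest primitive endoderm sums (2969, 2878 and 2123 CPM, against 911 CPM in parental samples). Dnmt3l did not follow these sums. Its mean was 124 CPM in the homodimer samples, with a sum of 631 CPM, and 76.4 CPM in those labelled TCF3 dimer. The part of the endoderm markers was not tested. DNA methylation was not measured.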

How the data were processed

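RNA-seq was done on 21 samples in 7 groups of 3 (day 3 embryoid bodies). Each sample has a deposited table of unscaled read counts by gene symbol. The submitters' processing notes name FastQC, TopHat2 and HTSeq and the builds mm10 and GRCm38; their versions, the annotation and the strand setting are not given in the sources used here. In 18 tables, 25 symbols had become dates; the 3 tables labelled TCF12 dimer keep them, so tables were joined by position, and that difference in handling cannot be told apart from the group.

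All 21 samples entered 1 fit with a mean per group: edgeR 4.0.16 (quasi-likelihood F-test, TMM factors, default filterByExpr with a count of 10 and a total of 15; limma 3.58.1, R 4.3.3), with Benjamini-Hochberg adjustment over all 14311 tested genes. Standard errors derive from the F statistic. CPM were computed here. Floors (3 counts) and intervals cover counting error only. On data simulated for the TCF3 dimer comparison with 14311 genes, 40% of 1.5-fold, 84% of 2-fold and 98% of 4-fold changes were recovered, with 6 false calls. The simulation gave every gene the same dispersion and held no sample that stood apart, so recovery in the real data may differ. Coordinates and overlaps come from GENCODE M21 (GRCm38), matched by symbol.

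The genes, lists and rules were chosen with earlier results of these data known. Values of every sample were given for genes called among the 6 lines with at least a 2-fold range of line means (0.5 CPM added) and at least 1 CPM in the highest group, or called with induction; the 5 genes most like the widest-ranging one were named. Alternatives were RLE factors, scaling by library size alone, DESeq2 1.42.0, other filters, only the groups compared, a replicate block, the 20-sample fit, and each sample left out. Replicates differed by more than sampling noise (chi-square per degree of freedom 1.46 to 116).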

Additional observations from a re-analysis of the deposited data

How the results depend on the processing

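No called fold change of a named gene reversed. Uncalled ones could: in the samples labelled TCF12 dimer, Peg10 went from -0.14 to 0.20 and Snrpn from 0.05 to -0.22 in the 20-sample fit. DESeq2, RLE factors, library size only and a filter of 1 CPM in 3 samples left every count of called imprinted genes within 1.5 times. Without a filter the homodimer count was 10 (6 as reported). In the 20-sample fit the counts were 19 (uninduced monomer; 10), 2 (induction; 0), 17 (induced monomer; 9), 12 (homodimer; 6), 15 (TCF4 dimer; 9) and 266 over the line pairs (174). With only the groups compared they were 18, 2, 18, 12 and 16 in the same order without the line pairs, and 5 for TCF12 dimer (17). Both settings change which samples set the spread; the cause was not tested further. Over all genes, the 20-sample fit called 5312 (uninduced monomer; 2854), 890 (induction; 286), 5073 (induced monomer; 2861), 2948 (homodimer; 1265), 6700 (TCF3 dimer; 4057) and 4046 (TCF4 dimer; 1839), and fits of only the groups compared 5029, 682, 5106, 3113, 6674 and 4010, and 824 for TCF12 dimer (3864). Leaving out each sample in turn gave 8 to 9 called imprinted genes (uninduced monomer), 0 to 0 (induction), 5 without induced sample 3 to 10 (induced monomer), 4 to 8 (homodimer), 17 to 19 (TCF3 dimer), 7 to 9 (TCF4 dimer), 14 to 23 (TCF12 dimer), 22 to 34 (among lines) and 152 to 266 (line pairs, 266 without TCF12 dimer sample 1). Over all genes it gave 173 to 206 for induction and up to 6165 for TCF12 dimer without its sample 3.

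Same-numbered samples did not deviate together (mean correlation 0.0214 over 63 pairs, against -0.0102 over 126 other pairs), so the numbers were not taken to pair samples. With a replicate block the counts were 10, 0, 9, 6, 18, 10 and 17 for the 7 comparisons in the order uninduced monomer, induction, induced monomer, homodimer, TCF3, TCF4 and TCF12 dimer, 25 among lines and 170 over the line pairs. Genes under about 1 CPM rest on few counts, so changes of less than 2-fold may go undetected there.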

Other observations

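A second list of 27 imprinted genes outside the 49 held 24 tested genes, of which 16 were called among the 6 lines (47.3% of all tested genes were) and none with induction of the monomer (edgeR, 2% of all tested genes). Set against the parental samples, those labelled TCF3 dimer had 7 of these genes higher and 4 lower (16.3% and 12% of all tested genes), those with the TCF4 dimer 3 and 3 (7.18% and 5.67%), and those labelled TCF12 dimer 4 and 7 (15.5% and 11.5%). Sfmbt2, a Polycomb-group gene that is paternally expressed in extraembryonic tissue, was at 9.63 ± 1.21 CPM in the parental line (SD, n = 3). It was at 5.08 ± 0.474 and 4.96 ± 0.512 CPM in the uninduced and induced monomer samples and at 1.40 ± 0.532 CPM in the homodimer line. It was lower than in the parental line in all 5 doxycycline-treated lines, by up to -2.75 ± 0.20 on the log2 scale in the homodimer line, and in the uninduced monomer samples (-0.91 ± 0.17). Trophoblast markers summed highest in the parental line too, and their part in this result was not tested. Pde10a, a phosphodiesterase, was at 3.73 ± 1.37 CPM in the parental line, 9.33 ± 1.91 CPM in the uninduced and 9.24 ± 1.60 CPM in the induced monomer samples. Osbpl5, a lipid transfer protein of the Kcnq1ot1 cluster, was higher than in the parental line with the homodimer and in all 3 heterodimer groups, with log2 fold changes of 0.93 ± 0.21 to 1.16 ± 0.21 in the latter.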
